A study of Mus musculus with 4 samples.

Results

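The 10 genes described here encode glycoproteins and small leucine-rich proteoglycans of the extracellular matrix: Fn1, Tnc, Fbln2, Postn, Sparc, Thbs1, Thbs2, Bgn, Dcn and Lum. They were chosen by symbol, as the entries of these names in the deposited expression tables, and all 10 were found among the 24850 named entries of the total RNA tables and the 24992 entries of the polyA tables. C2C12 is a mouse myoblast cell line that withdraws from the cell cycle and fuses into multinucleated myotubes when growth medium with 10% FBS is exchanged for differentiation medium (DM) with 2% horse serum. Total RNA depleted of rRNA was sequenced from myoblasts (MB, labelled DM -24 h) and from myotubes (MT, DM 72 h), and polyA RNA from cultures at DM 48 h that had received a control siRNA (si-NC) or an siRNA against hnRNPL (si-hnRNPL), an RNA-binding protein of the nucleus. There was 1 library for each of the 4 conditions, so no difference could be set against a spread between replicates and p-values are not reported. No label gives a genetic change in any of the cultures, all of which are of the same cell line. The labels name no other cell type in them, so the levels describe a cell line in culture and not muscle tissue with its fibroblasts, vessels and nerves.

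Fibronectin (Fn1) is a secreted dimer that binds integrins and is pulled into fibrils at the cell surface, and it is the scaffold on which collagens and many other matrix proteins are deposited. Tenascin-C (Tnc), periostin (Postn), SPARC and the thrombospondins (Thbs1 and Thbs2) are called matricellular proteins, since they alter how cells attach and respond to the matrix more than they build its framework. Decorin (Dcn), biglycan (Bgn) and lumican (Lum) carry glycosaminoglycan chains on a leucine-rich core and bind collagen fibrils, and decorin and biglycan also bind growth factors of the TGF-beta family. Muscle makes many of these proteins during development and repair, and decorin is abundant in the connective tissue around muscle fibers.

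Promoter windows were available for 6 of the 10 genes in the RefSeq table of GRCm38.p6, with 8 windows in all of 250 bases before and 50 bases after the start site. Those of Postn and Tnc are shown because these genes moved in opposite directions between MB and MT, and that of Sparc because its mean level over the 4 libraries was the highest of the 10. Where a gene had a pair of windows, the one printed starts the same span of bases as the gene's entry in the expression tables (29935 bases for Postn, 87231 bases for Tnc). Capitals mark E-boxes (CANNTG), the site of MyoD and other basic helix-loop-helix factors, and GC boxes (GGGCGG), read on both strands. AP-1 sites (TGANTCA) were searched for as well and were not found in these letters.
Postn promoter, chr3:54360857-54361156 (+): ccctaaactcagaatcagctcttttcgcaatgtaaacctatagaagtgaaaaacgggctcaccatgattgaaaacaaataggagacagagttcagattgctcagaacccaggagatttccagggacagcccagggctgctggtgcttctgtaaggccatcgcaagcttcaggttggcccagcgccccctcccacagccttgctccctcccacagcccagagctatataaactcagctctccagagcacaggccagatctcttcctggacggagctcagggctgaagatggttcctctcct
Tnc promoter, chr4:64046966-64047265 (-): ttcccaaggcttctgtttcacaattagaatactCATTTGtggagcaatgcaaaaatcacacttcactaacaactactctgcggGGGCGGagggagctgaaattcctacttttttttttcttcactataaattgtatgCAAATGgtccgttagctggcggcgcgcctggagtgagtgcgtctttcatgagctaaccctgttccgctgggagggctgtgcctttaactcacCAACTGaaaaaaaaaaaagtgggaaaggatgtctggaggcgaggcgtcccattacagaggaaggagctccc
Sparc promoter, chr11:55420031-55420330 (-): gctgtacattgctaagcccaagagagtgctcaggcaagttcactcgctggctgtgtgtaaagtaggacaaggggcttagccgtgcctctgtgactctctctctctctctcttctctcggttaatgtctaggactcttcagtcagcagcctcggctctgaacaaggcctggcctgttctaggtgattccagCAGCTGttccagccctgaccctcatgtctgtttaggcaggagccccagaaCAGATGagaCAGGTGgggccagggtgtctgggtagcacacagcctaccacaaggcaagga
The Postn window held 0 matches to any of these motifs, and neither did the other Postn window. The Tnc window held 3 E-boxes, at -217, -113 and -21 from the start site, and 1 GC box at -167. Sparc held 3 E-boxes, reading CAGATG at -10, CAGGTG at -1 and CAGCTG at -60. CAGCTG, 1 of the forms that MyoD binds, was also searched for by itself and is counted among the E-boxes. Bgn had 1 E-box of this form and 3 GC boxes, Fbln2 had 1 E-box and 2 GC boxes, and Thbs2 had 2 E-boxes. No window of the 6 genes matched the AP-1 site. Of all 32851 windows of the same length, 72.3% held an E-box, 16.3% a CAGCTG, 35.7% a GC box and 7.81% an AP-1 site, so that an E-box is the usual case. Fn1, Thbs1, Dcn and Lum have no window in the table.

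Levels are given as FPKM, the fragments of a transcript divided by its length and by the sequencing depth, so that genes can be set side by side within a library. Each comes with a 95% interval from Cufflinks, which covers counting and assignment error inside that library and nothing of the spread between cultures. The widths of the intervals correspond to 14592480 fragments in si-hnRNPL, 21341051 in si-NC, 54442423 in MT and 59960176 in MB over all entries. Assignment error also widens the intervals, so these numbers are not read counts or a measured depth. In si-NC, for instance, Fn1 at 1217 FPKM implied 9337 fragments and Bgn at 843 FPKM implied 64382. Total RNA and polyA libraries were made with different selection, at different times and with or without siRNA, so these 3 differences cannot be told apart and the levels across the 2 kinds of library are only set side by side. The markers of differentiation moved as the labels say: all 9 of the muscle markers found, such as Myog (0.695 FPKM in MB and 251 FPKM in MT), were higher in MT and all 10 proliferation markers were lower. Markers of endothelial cells stayed at or below 0.114 FPKM in the total RNA libraries and 0.36 FPKM in the polyA libraries, and the 8 immune markers found stayed at or below 1.13 FPKM and 0.935 FPKM. Among 10 fibroblast and progenitor markers, Dpp4 and Tcf21 were listed at 0 in all 4 libraries, Thy1 was at 0.0438 FPKM or less, and their summed FPKM was 1212 in MB, 981 in MT, 3147 in si-NC and 3830 in si-hnRNPL. Most of that sum was S100a4, and Ly6a was the 1 marker of the list called higher in MT (54.3 and 169 FPKM). In all, 5 of the 10 had at least 1 FPKM in MB or MT. Besides S100a4 and Ly6a these were Cd34 (44.9 FPKM in MB and 29.9 FPKM in MT), Pdgfrb (38.3 and 43.4 FPKM) and Pdgfra (2.14 and 3.38 FPKM).

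In MB, Sparc, Thbs1, Bgn and Fn1 stood at 105 FPKM or more, and Tnc, Fbln2 and Thbs2 at 73 to 32.9 FPKM. Postn was lower, at 3.55 FPKM, Dcn was at 0.503 FPKM and Lum was listed at 0. The summed FPKM of the 10 genes was 980 in MB, 1290 in MT, 3865 in si-NC and 4044 in si-hnRNPL. These sums were 0.285%, 0.49%, 1.02% and 0.996% of the FPKM of all protein-coding entries. Among the 19429 protein-coding entries of the total RNA tables, Sparc ranked 150 in MB and 58 in MT. In the polyA libraries Fn1 led, at rank 13 in si-NC and 23 in si-hnRNPL of 18965. The number of the 10 genes at 10 FPKM or more was 7 in MB and 9 in MT, and it was 8 in both si-NC and si-hnRNPL.

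**Figure D1:**
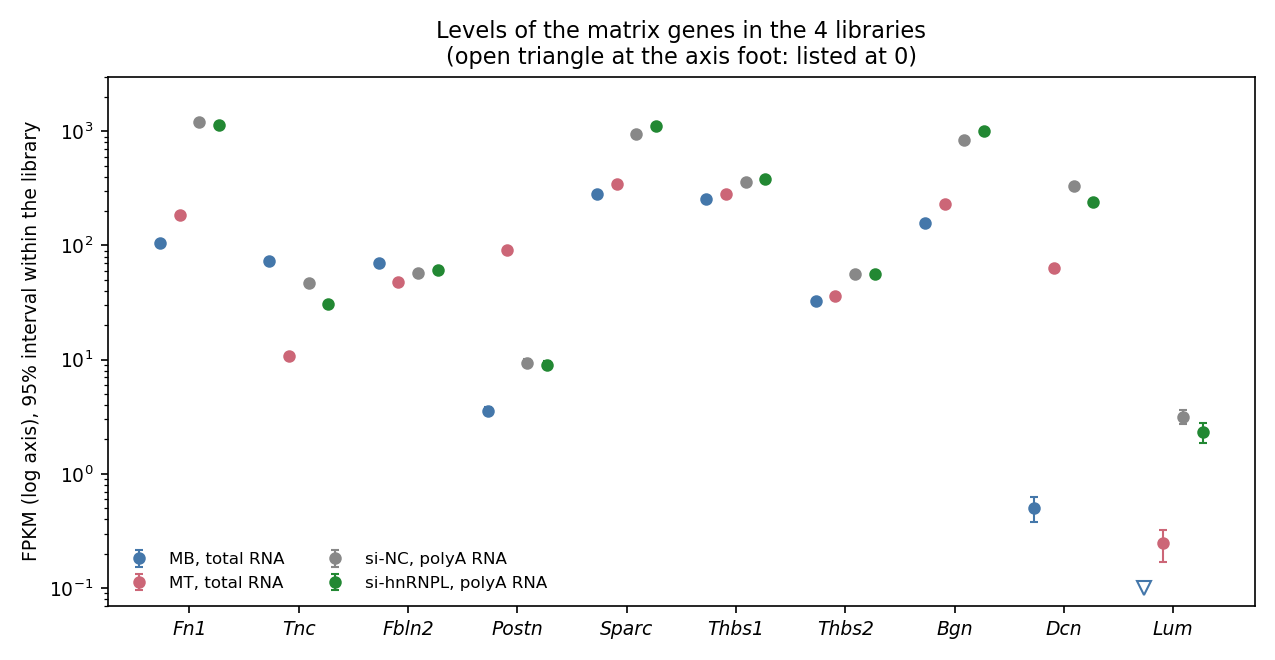
FPKM of the 10 matrix genes on a log axis in the MB, MT, si-NC and si-hnRNPL libraries, each point 1 library and each bar the 95% interval within it. Dcn goes from 0.503 FPKM in MB to 63.1 FPKM in MT, Tnc from 73 to 10.8 FPKM, and Lum, listed at 0 in MB and drawn as a triangle, stays under 4 FPKM in all libraries.

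MT were compared with MB to ask which matrix genes differ once myoblasts have differentiated. Dcn and Postn were far higher in MT, Fn1 was moderately higher, Tnc was far lower, and the other 6 genes were not called. Of these, 5 differed by less than the 1.5-fold that the study uses as its limit, and Lum was listed at 0 in MB, so that no fold can be given for it. A change is given as log2((FPKM + 1) ratio), a scale that understates the change of low genes, and was called at 0.58 or more in size. With this rule 3 of the 10 genes were higher and 1 was lower, beside 7.81% of all named entries higher and 13.7% lower. Most named entries are hardly expressed, and among those with at least 10 FPKM in either library, which holds 9 of the 10 genes, 12.5% were higher and 35.7% lower. The median change of the 10 genes was 0.30, beside a median of -0.34 over those entries and -0.23 over the 10791 entries with at least 1 FPKM in both libraries. In such bulk RNA a change in the number of cells of a kind and a change of RNA per cell cannot be told apart. All 10 pairs of level intervals were apart, as they were for 47.8% of all named entries and 90% of those with at least 10 FPKM in either library. Intervals that are apart are thus the usual case for such genes. Lum, listed at 0 in MB, has an interval of no width there.

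Dcn (chr10:96942134-96980796 on mm9, plus strand, 8 exons in its longest coding transcript) had the largest change of the 10 genes. It stood at 0.503 FPKM (0.381 to 0.625) in MB, an interval that implies about 68 fragments, and at 63.1 FPKM (61.8 to 64.4) in MT. The difference was 5.41 on the log2 scale (5.29 to 5.53), and 125-fold on FPKM without the added 1. In the polyA libraries Dcn was at 330 FPKM (316 to 344) in si-NC and 238 FPKM (228 to 249) in si-hnRNPL. Dcn thus ranked 10544 among protein-coding entries in MB, 833 in MT and 162 in si-NC, the widest span of the genes above 1 FPKM in MT.

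Lum lies next to Dcn, with 47.3 kb between them (chr10:97028135-97035337, plus strand), and encodes lumican, a proteoglycan of the cornea and of tendon and skin. It was listed at 0 in MB, at 0.246 FPKM (0.169 to 0.323) in MT, at 3.17 FPKM (2.72 to 3.61) in si-NC and at 2.32 FPKM (1.85 to 2.8) in si-hnRNPL. The order of the libraries is that of Dcn, at levels lower by a factor of 256 in MT, 104 in si-NC and 103 in si-hnRNPL. No fold is given against MB, and the change of 0.32 on the log2 scale is set by the added 1. The further genes of this cluster, Kera and Epyc, were listed at 0 in both total RNA libraries and at 0.0573 FPKM or less in the polyA libraries.

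Biglycan is the close relative of decorin, and Bgn (chrX:70728974-70741275 in the total RNA tables, plus strand, 8 exons) was high in all 4 libraries. It was at 156 FPKM (154 to 158) in MB, 230 FPKM (228 to 232) in MT, 843 FPKM (837 to 850) in si-NC and 1008 FPKM (999 to 1017) in si-hnRNPL. The change from MB to MT was 0.56 (0.53 to 0.58), just under the limit, and Bgn is the gene nearest to it from below. The ratio of Bgn to Dcn therefore went from 310 (243 to 396) in MB to 3.64 (3.56 to 3.73) in MT, and was 2.55 in si-NC and 4.23 in si-hnRNPL. MB thus expressed biglycan with very little decorin, and MT expressed both.

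Periostin binds collagen and helps to bring the enzymes that process and cross-link it. Postn (chr3:54165029-54194963, plus strand, 23 exons) was at 3.55 FPKM (3.27 to 3.82) in MB and 91.7 FPKM (90.3 to 93.2) in MT, a difference of 4.35 (4.26 to 4.44) and a ratio of 25.9. The polyA libraries held 9.42 FPKM (8.75 to 10.1) in si-NC and 9.03 FPKM (8.24 to 9.82) in si-hnRNPL. Postn was the 1 gene of the 10 whose MT level was above both of its polyA levels. Dcn, which moved with it between MB and MT, had the opposite order, with its polyA levels above MT.

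Tenascin-C is a large oligomeric glycoprotein that is deposited on fibronectin and weakens cell attachment to it. Tnc (chr4:63620819-63708049, minus strand, 26 exons) was the 1 gene of the set called lower in MT, at 73 FPKM (72.3 to 73.7) in MB and 10.8 FPKM (10.5 to 11.1) in MT. The change was -2.65 (-2.68 to -2.61), so that MT held 14.8% of the MB level. In si-NC it stood at 46.9 FPKM (46 to 47.8) and in si-hnRNPL at 30.5 FPKM (29.7 to 31.4), between the MB and MT values. The order of Postn and Tnc turned over, with a ratio of Postn to Tnc of 0.0486 in MB and 8.49 in MT, while both polyA libraries had more Tnc than Postn (0.201 and 0.296).

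Fn1 (chr1:71632047-71699808, minus strand, 46 exons) was at 105 FPKM (104 to 106) in MB and 183 FPKM (182 to 184) in MT, a difference of 0.80 (0.78 to 0.81). It is the called gene nearest to the limit in this comparison. In the polyA libraries its level was 1217 FPKM (1192 to 1243) in si-NC and 1136 FPKM (1112 to 1160) in si-hnRNPL. The ratio of Fn1 to Tnc was 1.44 in MB, 17 in MT, and 26 and 37.2 in the si-NC and si-hnRNPL libraries, so that tenascin-C transcripts were close to those of its fibronectin partner only in the MB library among the 4. Fibulin-2, which binds fibronectin and elastic fibers, kept a middle level. Fbln2 (chr6:91162758-91222534, plus strand, 18 exons) was at 69.8 FPKM (68.9 to 70.7) in MB, 47.9 FPKM (47.2 to 48.6) in MT, 57.6 FPKM in si-NC and 60.6 FPKM in si-hnRNPL, and its change of -0.53 (-0.56 to -0.51) stayed within the limit.

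SPARC is a collagen-binding glycoprotein that also acts inside cells on collagen secretion. Sparc (chr11:55207661-55233582, minus strand, 10 exons) was the highest of the 10 genes in MB and MT, at 284 FPKM (282 to 286) and 346 FPKM (343 to 349), a change of 0.28 (0.27 to 0.30). It was at 945 FPKM (912 to 978) in si-NC and 1122 FPKM (1082 to 1161) in si-hnRNPL. Sparc exceeded Fn1 by a factor of 2.7 in MB and 1.89 in MT, while the ratio was 0.776 for si-NC against 0.987 (0.947 to 1.03) for si-hnRNPL.

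The thrombospondins are secreted oligomers that bind CD36, CD47 and integrins, and thrombospondin-1 can activate latent TGF-beta. Thbs1 (chr2:117937658-117952869 in the total RNA tables, plus strand, 22 exons) was at 255 FPKM (253 to 256) in MB, 281 FPKM (280 to 283) in MT, 356 FPKM (343 to 370) in si-NC and 382 FPKM (367 to 396) in si-hnRNPL. Thbs2 (chr17:14802507-14831269, minus strand, 22 exons) was at 32.9 FPKM (32.4 to 33.5), 35.8 FPKM (35.3 to 36.4), 56 FPKM (54.9 to 57) and 56.2 FPKM (54.9 to 57.5) in the same order. Their changes from MB to MT, 0.14 and 0.12, were the smallest of the 10. The ratio of Thbs1 to Thbs2 was 7.73 (7.6 to 7.87) in MB, 7.85 (7.72 to 7.97) in MT, 6.37 (6.1 to 6.65) with si-NC and 6.79 (6.49 to 7.1) with si-hnRNPL. It varied far less than the ratio of Bgn to Dcn over the same libraries.

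The order of the levels within MB was Sparc, Thbs1, Bgn, Fn1, Tnc, Fbln2, Thbs2, Postn, Dcn and Lum. Within MT, Postn and Dcn moved up to follow Fn1, and Tnc dropped to the place before Lum. In neither library did the intervals of neighbours in this order overlap. The order was the same in both polyA libraries: Fn1, Sparc, Bgn, Thbs1, Dcn, Fbln2, Thbs2, Tnc, Postn and Lum. There Thbs1 and Dcn overlapped in si-NC, as did Fbln2 and Thbs2, and Fn1 and Sparc overlapped in si-hnRNPL.

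**Figure D2:**
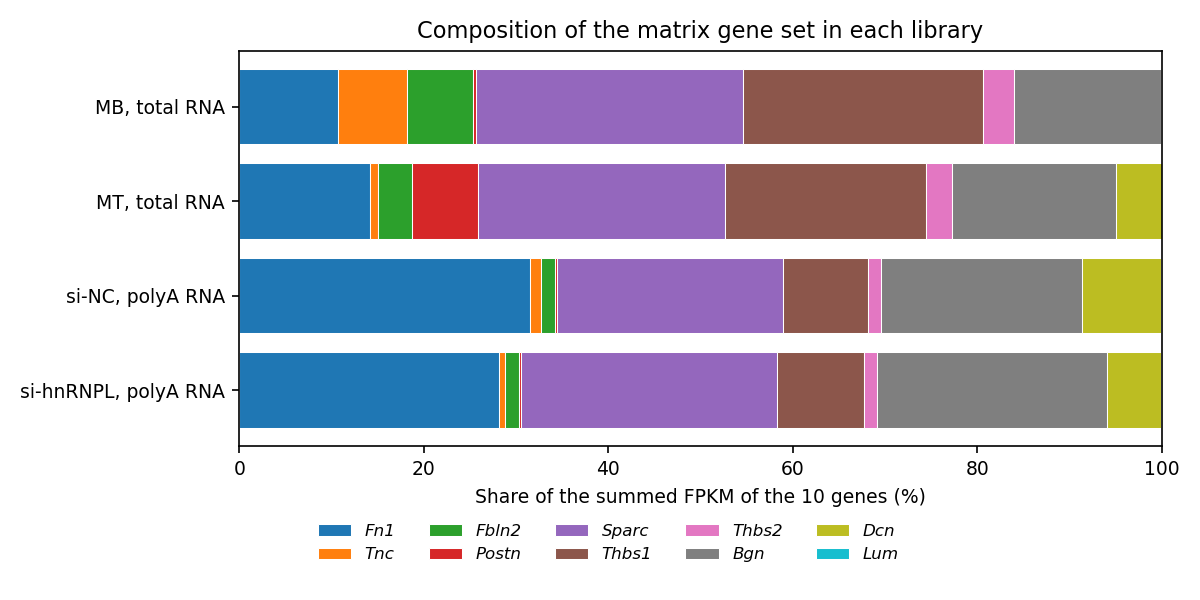
Share of each gene in the summed FPKM of the 10 matrix genes, 1 bar for each library. Sparc and Thbs1 take 29% and 26% in MB, Postn goes from 0.362% in MB to 7.11% in MT, and Fn1 takes 31.5% in si-NC and 28.1% in si-hnRNPL.

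The entries as a whole shifted down from MB to MT, which bears on the genes near the limit. The median of entries with at least 1 FPKM in both libraries was -0.23, and relative to it the changes were 1.02 for Fn1, 0.78 for Bgn, 0.51 for Sparc, 0.37 for Thbs1, 0.34 for Thbs2 and -0.31 for Fbln2. Relative to this median Bgn passed the limit, and Sparc passed it too when the libraries were set to the same upper quartile (0.63) or to the same protein-coding sum (0.67). Over all named entries the split of 1942 higher and 3407 lower became 3060 higher and 2208 lower relative to the median. Among those with at least 10 FPKM in either library, 99.7% had a lower change than Dcn and 99.3% a lower one than Postn, while 1.21% had a lower one than Tnc.

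**Figure D3:**
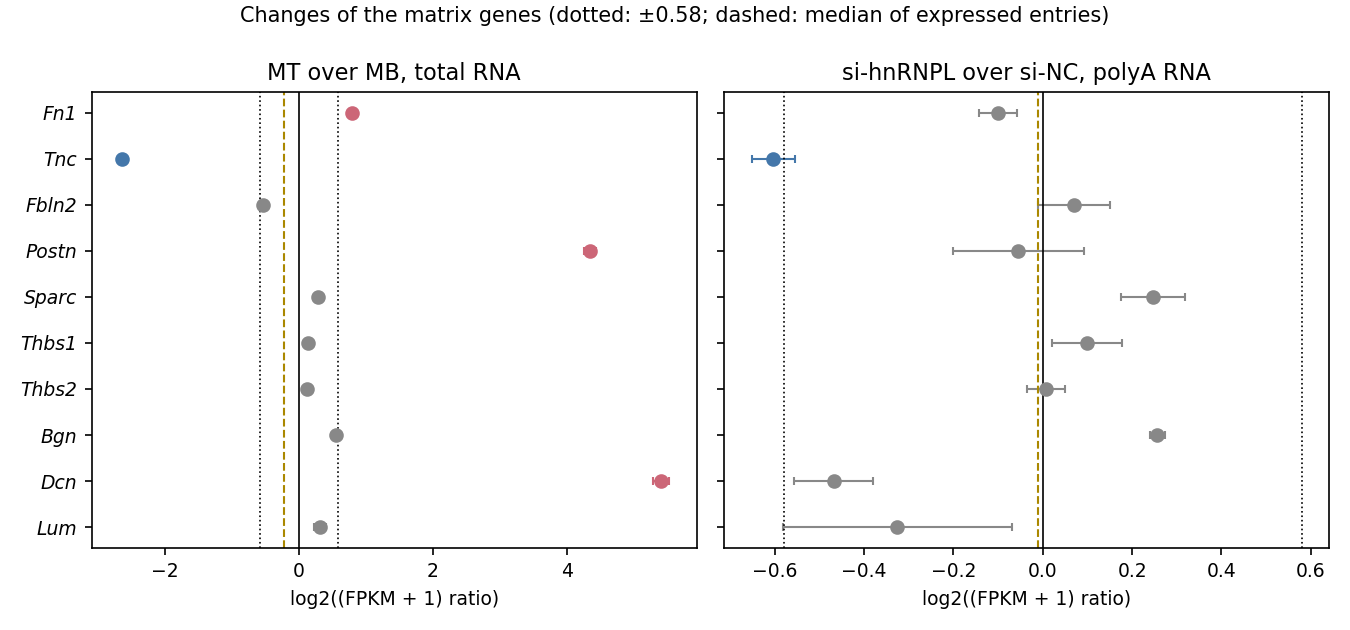
Changes of the 10 matrix genes as log2((FPKM + 1) ratio) with the interval that the level intervals give, for MT over MB on the left and si-hnRNPL over si-NC on the right, on axes of different range. Red points were called higher and blue points lower at 0.58 (dotted lines), grey points were not called, and the dashed line is the median of entries with at least 1 FPKM in both libraries, at -0.23 on the left and -0.01 on the right.

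The genes that work with these 10 were taken from lists by role, chosen with results of these data already known. Among 18 other proteoglycans and leucine-rich matrix genes, 5 were higher in MT and 0 lower, with a median of 0 because most are hardly expressed and of 1.27 over the 8 with at least 1 FPKM. Ogn (osteoglycin) went from 58.1 to 416 FPKM, a change of 2.82 (2.79 to 2.85), and Aspn (asporin) from 1.05 to 22.7 FPKM, a change of 3.53 (3.40 to 3.66). Prelp, a collagen-binding relative, went from 2.65 to 13.9 FPKM (2.03), and Srgn, the proteoglycan of secretory granules, from 0.093 to 1.87 FPKM (1.40). Omd (osteomodulin), named after its values were seen, was the fifth, at 7.13 and 17 FPKM (1.14).

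Ogn, Omd and Aspn lie beside each other with Ecm2 in a second leucine-rich cluster of 120 kb on chromosome 13, which was singled out after its values were seen. All 4 genes of it were higher in MT, Ecm2 at 0.629 and 4.01 FPKM (1.62). In the Dcn cluster of 202 kb on chromosome 10, Dcn alone of 4 genes passed the limit in this comparison, with Lum present in MT at 0.246 FPKM.

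Among 38 other matrix glycoproteins, 9 were higher in MT and 8 lower, with a median of 0.0038, and of -0.15 over the 23 with at least 1 FPKM. Fbln7, a fibulin, went from 1.12 to 20.5 FPKM (3.34), Mfap5, a microfibril protein, from 1.85 to 13.2 FPKM (2.31), and Mgp, the inhibitor of matrix calcification, from 96.9 to 423 FPKM (2.11). Smoc2, which is related to SPARC, went the other way, from 19.8 to 2.02 FPKM, a change of -2.79 (-2.88 to -2.69). Of 15 basement membrane genes 3 were higher and 4 lower (median 0.19, and 0.11 over the 12 with at least 1 FPKM). The laminin chains Lama2 (4.21 and 15.9 FPKM) and Lama4 (0.297 and 2.06 FPKM) were higher in MT, while Nid1 (nidogen-1, 101 and 41.2 FPKM) and Lamb3 (6.88 and 2.79 FPKM) were lower.

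The collagens that these genes bind stood higher in MT for 6 of 11, with 1 lower and a median of 0.71. Over the 10 with at least 1 FPKM in MB or MT the median was 0.59. Col6a1 (27.7 and 119 FPKM, 2.06), Col6a2 (7.2 and 30 FPKM, 1.92) and Col12a1 (56.6 and 153 FPKM, 1.42) were higher, and Col6a3, the third chain of the same collagen VI, was lower (40.2 and 17.3 FPKM, -1.18). Of 17 cell surface receptors 5 were higher and 5 lower (median -0.12, and -0.25 over the 15 with at least 1 FPKM). Sdc2 (syndecan-2) was at 56.9 FPKM in MB and 157 FPKM in MT, Itgb6 at 0.972 and 8.26 FPKM, and Cd36 at 0.0112 and 2 FPKM, while Sdc3 (syndecan-3) was at 21.3 and 3.42 FPKM.

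Of 22 genes for assembly and cross-linking, 3 were higher and 7 lower (median -0.19, and -0.37 over the 19 with at least 1 FPKM). Tgm2, a transglutaminase that cross-links fibronectin, went from 2.05 to 16.8 FPKM (2.55), and Adamts2, which trims procollagen, from 4.26 to 9.69 FPKM (1.02). Pcolce2, an enhancer of procollagen processing, went from 70.6 to 8.55 FPKM (-2.91), and the lysyl oxidase relative Loxl4 from 8.59 to 3.25 FPKM (-1.17). Of 18 genes that build chondroitin and dermatan sulfate chains, the kind that decorin and biglycan carry, 0 were higher and 3 were lower (median -0.25): Chst11 (10.7 and 4.95 FPKM), Csgalnact1 (17.3 and 9.98 FPKM) and Chsy1 (27.8 and 16.3 FPKM). Thus Dcn was higher in MT with no gene of chain synthesis past the limit in that direction. Nuclear RNAs also stood higher in MT, with 3 of 4 past the limit, such as Malat1 (161 and 628 FPKM, 1.96) and Neat1 (14.3 and 48.8 FPKM, 1.70), and their part in the results for the matrix genes was not tested.

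**Figure D4:**
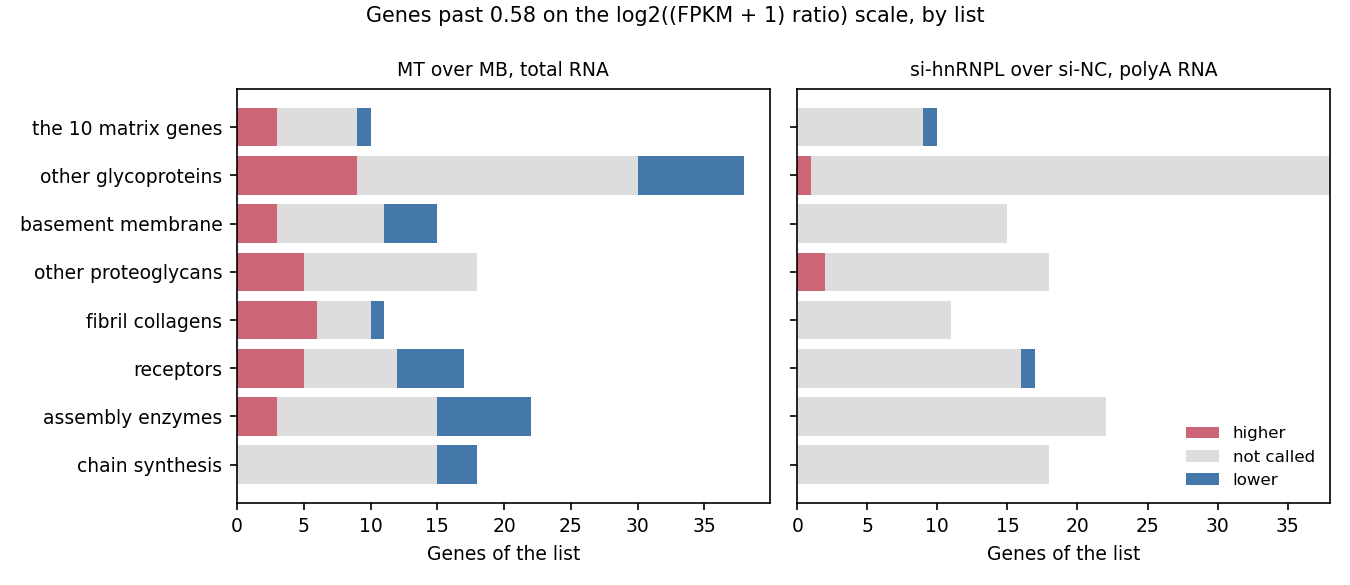
Number of genes called higher (red), lower (blue) or not called (grey) at 0.58 on the log2((FPKM + 1) ratio) scale in the 10 matrix genes and 7 lists by role, for MT over MB on the left and si-hnRNPL over si-NC on the right. Calls in both directions fill much of the left panel, and in the right panel 5 genes are called in all.

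The total RNA tables also list transcript units that were assembled from the reads and carry no gene symbol, 36780 in all, of which 79.3% had a higher FPKM in MT and 20.7% a lower one. None overlapped the locus of any of the 10 genes, and 44 lay within 50 kb of 7 of them, 23 higher and 21 lower in MT. Their levels were low, at 1.32 FPKM or less. Thbs1 had 12 such units, 10202 to 49126 bases before its start, and all 12 were higher in MT, at 0.0238 to 0.0947 FPKM in MB and 0.161 to 0.351 FPKM in MT. The intervals of the levels were apart for 6 of the 12, beside 42.3% of all units that were higher with intervals apart, while Thbs1 itself changed by 0.14. Tnc had 4 units, 25607 to 42413 bases before its start, and all 4 were lower in MT with intervals apart, beside 6.61% of all units, the nearest at 1.32 FPKM (1.08 to 1.55) in MB and 0.306 FPKM (0.199 to 0.412) in MT. For Tnc the units and the gene thus had the same direction. The unit at 37179 bases spans those at 39052 and 42413 bases, so the 4 are not separate observations. The 12 units near Thbs1 lie close together and need not be independent either. Fn1 had 4 units (2 higher), Sparc 6 (1 higher), Thbs2 6 (1 higher), Bgn 4 (2 higher) and Fbln2 8 (5 higher), and Postn, Dcn and Lum had 0. With intervals apart, 2 units were higher and 0 lower near Fn1, and 0 were higher and 2 lower near Sparc. The same counts were 0 and 3 near Thbs2, 0 and 0 near Bgn, and 0 and 2 near Fbln2, so clear lowering was not limited to the units near Tnc.

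**Figure D5:**
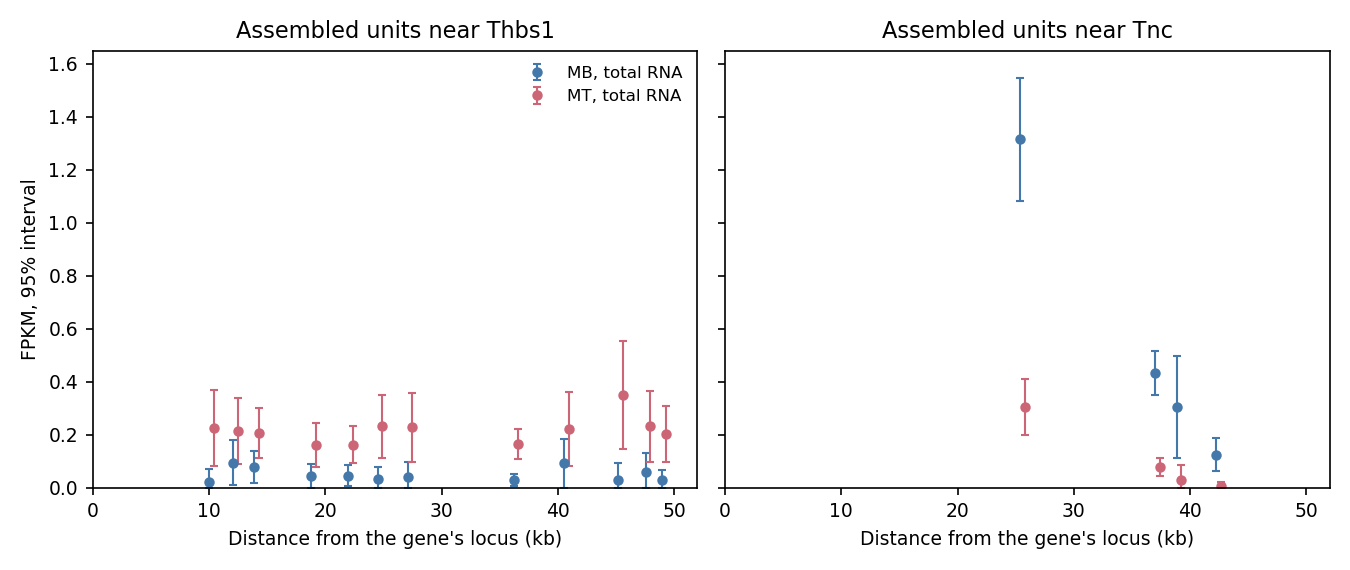
FPKM with 95% interval of the assembled units within 50 kb of Thbs1 (left, 12 units) and Tnc (right, 4 units) in MB (blue) and MT (red), against their distance from the gene's locus in kb. The units near Thbs1 lie at 0.351 FPKM or less and higher in MT, and those near Tnc lie lower in MT, from 1.32 to 0.306 FPKM at the nearest.

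The si-hnRNPL library was compared with si-NC to ask which genes differ between these 2 libraries at DM 48 h. Across the 10 matrix genes the 2 libraries were close: Tnc was called lower, at the edge of the limit, 0 genes were called higher, and 9 lay within it. The siRNA is shown because it ties the label to its target, with U as listed and no capitals.
si-hnRNPL: gcgugcuucuguuuaccau
Its 19 bases match mm9 once, at chr7:29599064-29599082 on the plus strand, in a coding exon of Hnrnpl. Hnrnpl itself was at 95.1 FPKM (92.7 to 97.5) in si-NC and 85.9 FPKM (83.1 to 88.7) in si-hnRNPL, a change of -0.14 (-0.20 to -0.09). The target transcript was therefore only slightly lower in the library labelled si-hnRNPL, and hnRNPL protein was not analysed here. With this small difference and a single library on each side, the comparison cannot show whether the matrix genes depend on hnRNPL. For C2C12 cells transfected with hnRNPL siRNAs and then differentiated, the paper reports a knockdown that it examined by western blot.

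Of all named entries 0.688% were higher and 0.416% lower, and of those with at least 10 FPKM in either library 1.21% and 0.672%. The 10 genes had a median change of -0.02, with 5 positive and 5 negative, beside a median of 0.0026 over the entries with at least 10 FPKM and a spread of 0.235 (SD over entries with at least 1 FPKM in both). The level intervals were apart for 5 genes, beside 15.7% of all named entries and 41.8% of those with at least 10 FPKM in either library, and the interval of the change included 0 for 3. The changes of the 10 genes ran from -0.60 to 0.26 here and from -2.65 to 5.41 between MB and MT.

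Tnc had the largest change, from 46.9 FPKM in si-NC to 30.5 FPKM in si-hnRNPL, which is 65.1% of the control, or -0.60 (-0.65 to -0.55), an interval that includes the limit. Dcn came next at 72.2% of the control, -0.47 (-0.56 to -0.38), and was the gene nearest to the limit among those not called. Lum was at 73.4% of si-NC, -0.33 (-0.58 to -0.07), with level intervals that overlap. These intervals imply about 203 fragments in the library labelled si-NC and 97.1 in the one labelled si-hnRNPL. Both neighbours on chromosome 10 thus had lower values in si-hnRNPL, while Bgn was at 120% of si-NC, 0.26 (0.24 to 0.27). The ratio of Bgn to Dcn was 4.23 (4.04 to 4.42) in si-hnRNPL against 2.55 (2.45 to 2.67) in si-NC.

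Sparc was at 119% of si-NC, 0.25 (0.18 to 0.32), and Fn1 at 93.3%, -0.10 (-0.14 to -0.06). Thbs1 differed by 0.10 (0.02 to 0.18), Fbln2 by 0.07 (-0.01 to 0.15), Postn by -0.05 (-0.20 to 0.09) and Thbs2 by 0.01 (-0.04 to 0.05). The intervals of Fbln2, Postn and Thbs2 hold 0, and with a single library on each side they bound counting and assignment error alone. The median over entries with at least 1 FPKM in both libraries was -0.01 in this comparison, so that values relative to it hardly differ.

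The lists by role held few calls. Of 38 other glycoproteins 1 was higher, Fbln7 (4.34 and 11 FPKM, 1.17), and of 18 other proteoglycans 2 were higher, Aspn (6.24 and 13.6 FPKM, 1.01) and Omd (2.08 and 4.63 FPKM, 0.87). Their neighbour Ogn was at 195 and 278 FPKM (0.51) and was not called. Of 17 receptors 1 was lower, Cd44, the hyaluronan receptor (196 and 125 FPKM, -0.65). Basement membrane genes, fibril collagens, assembly enzymes and chain synthesis had 0 calls in either direction, with medians of -0.08, 0.11, 0.0029 and -0.0099. Aspn, Omd and Fbln7, which were higher in MT than in MB, were higher in si-hnRNPL, and Tnc and Cd44 were lower in both comparisons. The 3 matrix genes called higher in MT did not follow, with changes in si-hnRNPL of -0.47 for Dcn, -0.10 for Fn1 and -0.05 for Postn. The muscle markers Ckm (0.71), Tnnc1 (0.63) and Acta1 (0.61) were also higher in si-hnRNPL, with a median of 0.43 over the 9 found, and the proliferation markers Mcm5 (-0.64), Mki67 (-0.62) and Top2a (-0.60) were lower, with a median of -0.44 over 10. The part of these differences in the values of the matrix genes was not tested.

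Sparc had the highest mean level of the 10 genes over the 4 libraries, 674 FPKM, and the entries most like it in both changes were sought among 10076. Those nearest in distance between the pairs of log2 changes included Pick1, Uqcc3, Spg21 and Tspyl4, at 0.0105 to 0.0213. With only 2 comparisons behind it, this likeness rests on a pair of numbers per gene, and the levels of these genes were far lower, at 39.8 FPKM or less.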

How the data were processed

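Total RNA of MB and MT depleted of rRNA and polyA RNA of si-NC and si-hnRNPL cultures were sequenced by the authors, 1 library each. Reads were trimmed and aligned to mm9 with TopHat2, and the authors deposited FPKM values from Cufflinks, each with a 95% interval. The total RNA tables list assembled units beside named genes. FPKM keeps no read counts, so the fragments that the intervals imply are given, and these are not a measured depth. Groups were taken from the sample titles.

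Changes were computed as log2((FPKM + 1) ratio) over all named entries, with no filter, and called at 0.58 or more in size. Their intervals combine the half-widths of both levels. With 1 library in each group no test was run. Loci are those of the tables (mm9), exons come from GENCODE, and promoter windows from RefSeq (GRCm38.p6). The members and lists were chosen with earlier results of these data known. The text names the 10 genes, up to 4 called genes in each list with the largest change and at least 1 FPKM in the higher library, the 5 entries most like Sparc, of which 1 is not reported here, and Hnrnpl. Genes named outside this rule (Omd, Ecm2, Kera, Epyc, Dpp4, Tcf21, Thy1, S100a4, Cd34, Pdgfrb, Pdgfra and, for si-hnRNPL, Ogn) were chosen after their values were seen. Proteins and splicing were not analysed here. Alternatives were other pseudocounts, thresholds, filters, scalings and corrections for length and GC content. The calculation used pandas 2.3.3 and numpy 2.4.6 in Python 3.11.15, with figures from matplotlib 3.10.9, and was tested on simulated data.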

Additional observations from a re-analysis of the deposited data

How the results depend on the processing

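Fn1, Postn, Dcn and Tnc kept their direction and stayed past 0.58 between MB and MT under every alternative fit that gave them a value, 10 for each and 9 for Dcn. Of the 10 genes, 3 were higher in MT, and 5 were with the same upper quartile or the same sum over protein-coding entries, which add Bgn and Sparc. The number was 4 with a pseudocount of 0.1 or 0.01, which adds Lum. It was also 4 relative to the median and with the correction for length or for length and GC content, which add Bgn. Bgn was past 0.58 in 5 of its 10 alternatives. With a threshold of 1 the number was 2, without Fn1 (0.80), and it was also 2 among entries with at least 1 FPKM in both libraries, which leave out Dcn. The 1 gene called lower in si-hnRNPL, Tnc, was lost (0 genes) at a threshold of 1, with the smallest change that the intervals allow (-0.54), with the median of its length bin subtracted (-0.51) and with medians of length and GC bins subtracted (-0.57). The cause was not tested. Corrections for GC content, the length correction between MB and MT and the scaling to the protein-coding sum were chosen after seeing the data. Lum passed the limit between MB and MT with a pseudocount of 0.1 (1.79) and 0.01 (4.68), since it is listed at 0 in MB. Over all named entries, those higher in MT numbered 1942, from 931 at a threshold of 1 to 5066 with a pseudocount of 0.01, and those lower 3407, from 1571 to 5205 under the same settings. In si-hnRNPL 172 were higher, from 19 to 1738, and 104 lower, from 13 to 1720, the lowest with the smallest change that the intervals allow. Of the changes of single genes between MB and MT under the alternatives, 57 moved by more than their interval and 41 did not. Between the siRNA libraries 21 moved by more than their interval and 79 did not. No paired analysis was possible because each group has 1 library, and for the same reason no library could be left out.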
